A study of Homo sapiens with 172 samples.

Results

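Chromosome 4 was followed across single cells as the autosome, of those with a signal, with the highest average contact with the nuclear lamina. Its members were all bins of 100 kb on chromosome 4 with a signal, which are 1878 of the 26414 bins with a signal over the genome. The data came from KBM7, a near-haploid human leukaemia line in which chromosomes 9 and 22 are joined. The 22 chromosomes with values are 1 to 7, 10 to 21, X and the joined 9:22 and 22:9. Chromosome 8 has no bin with a signal, so all ranks leave it out. All 172 samples form 1 group of haploid cells of clone 5-5, each expressing the DNA methyltransferase Dam fused to LaminB1, and 168 of them have a column in the table. The fusion protein was stabilised with 0.5 nM Shield1 for 15 h, after which the smallest 2% of cells with both Fucci cell cycle reporters were sorted one to a well. No other condition or cell line enters, and as all cells come from 1 clone with no separate cultures named, standard deviations (SD) below describe the spread between cells and no p-value was made from them.

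The lamina is a mesh of lamin proteins under the inner nuclear membrane, and LaminB1 is anchored to that membrane. Stretches of chromosome that touch it, known as lamina-associated domains, are usually poor in genes, late in replication and mostly silent. Dam marks adenines in GATC near the fusion protein, so that marked DNA records contacts made during the induction. In a haploid cell there is 1 copy of chromosome 4, so each cell shows what that copy did.

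A bin was counted as in contact with the lamina in a cell when the observed reads were at least equal to the expected reads, that is, at a ratio of 1 or more. The columns numbered n and n + 86 hold the same cell. On chromosome 4, 167 of the 168 columns correlated best with the column 86 numbers away, the exception being a column of cell 6. Their ratios were averaged, which gave 84 cells. Reads in the deeper column of a cell ranged from 7134 to 418937 with a median of 63700. On chromosome 4 the same columns held from 140 reads in cell 19 to 42308 in cell 74, the median being 6142. For the median cell, 2.59 reads in a typical bin of the chromosome made up a ratio of 1, and in 13 cells less than 1 read did. Absence of contact and lack of reads therefore cannot be told apart in the shallowest cells. Cells differed in how broken up their contacts were, with 371 runs of contacted bins on chromosome 4 in cell 72, 320 in cell 48, 307 in cells 17 and 56, 305 in cell 55 and 297 in cell 54, against a mean of 200. Of these, cells 48, 54 and 56 had been picked out in earlier work on these data. The others were not left out by name. Without cells 48, 54 and 56 the contact share of chromosome 4 was 38.1% ± 12.3 (SD, n = 81), and its excess over the other chromosomes 11.1 ± 8.54 points.

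In the average cell, 37.8% ± 12.3 of the bins of chromosome 4 touched the lamina (SD, n = 84), against 27.0% ± 6.32 of the bins on the other chromosomes. The lowest cell had 8.31%, the median 38.3% and the highest 66.3%. The difference between chromosome 4 and the other chromosomes was 10.8 ± 8.57 points, and 72 of 84 cells had the higher share on chromosome 4. It ranged from -9.51 points in cell 31 to 27.7 points in cell 45. Chromosome 4 was picked with its high mean known, so this rank is a description. The closest neighbours did not all stand apart from it. Chromosome X averaged 37.2% ± 11.2, and chromosome 4 exceeded it in 43 cells and was below it in 41 (mean difference 0.637 ± 11.5 points). Chromosome 18 averaged 33.6% ± 11.9 and chromosome 13 33.1% ± 11.7. Chromosome 4 was above chromosome 18 by 4.14 ± 13.5 points, in 56 of 84 cells, and above chromosome 13 by 4.65 ± 11.0 points, in 62 of 84 cells. All 3 mean differences are smaller than their spread over cells.

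Counted in reads, the excess was also seen without a contact cutoff. The reads were worked back from the same ratios by which the chromosome was picked, so this is not separate support. Chromosome 4 held 9.09% ± 2.48 of a cell's reads in its deeper column (SD, n = 84), against 7.01% of the expected reads over the genome, and was above that share in 72 of 84 cells. Where chromosome 4 was in contact, its ratio was no higher than elsewhere, at a mean of 2.95 ± 0.933 against 3.20 ± 0.940 in contacted bins of the other chromosomes. The excess thus lay in the number of contacted bins, with 38.3% of its values at 0 against 50.9% on the other chromosomes. Contact did not follow the expectation per bin. This is a whole number worked back from the ratios before scaling to the depth of a column, not the reads expected in a cell. Its median was 305 in bins in contact in at least 50% of cells and 307 in bins in contact in under 5%. Over the 1878 bins it correlated with contact frequency at r = 0.06.

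Chromosome 4 moved with the rest of the nucleus, and more steeply. Over the 84 cells its contact share correlated with that of the other chromosomes at r = 0.75 (Spearman's rho = 0.74, r = 0.75 without the 2 cells farthest from the median, all as descriptions), with a slope of 1.47 points per point. This was the highest slope of the 22 chromosomes with values, whose median was 0.854, and chromosome 5 followed with 1.40. The points share library and depth. The contact share of chromosome 4 also rose with the logarithm of the reads per cell (r = 0.70), and so did its excess over the other chromosomes (r = 0.45). The columns fell into 2 sets, with 0.835 to 1.73 times as many reads in the higher-numbered as in the lower-numbered column in cells 1 to 29, and 1.27 to 3.59 times in cells 30 to 86. Within these sets, chromosome 4 and the other chromosomes correlated at 0.81 and 0.73, and the excess and the logarithm of the reads at 0.63 and 0.40. The part of depth in the slope was not tested.

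**Figure D1:**
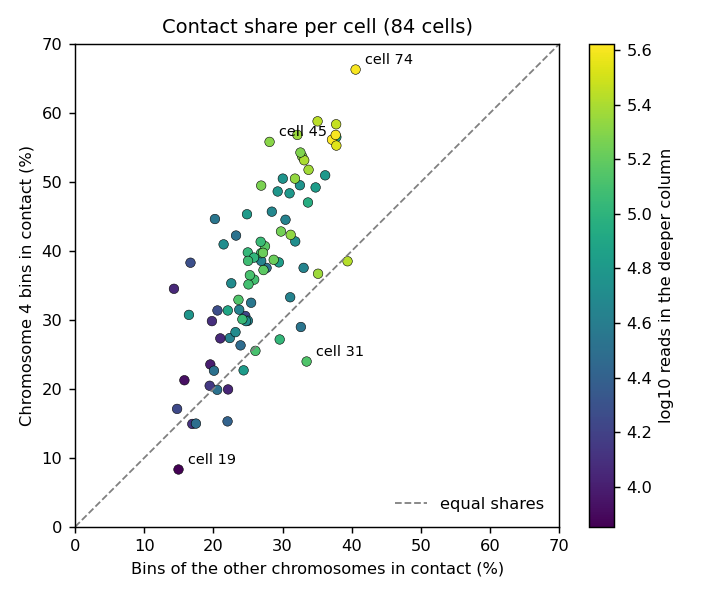
Percent of chromosome 4 bins in contact with the lamina (vertical axis) against percent of bins in contact on the other chromosomes (horizontal axis), 1 point per cell, coloured by the log10 of the reads in the deeper column. Of the 84 cells, 72 lie above the dashed line of equal shares, and cell 31, with 24.0% on chromosome 4 and 33.5% elsewhere, lies farthest below it.

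Cells at both ends show the range. Cell 74, the highest, had 66.3% of chromosome 4 and 40.6% of the other chromosomes in contact, and 404826 reads. Cells 78 and 75 followed with 58.8% and 58.4% of chromosome 4. The cell in the middle of the order, cell 47, had 38.3% on chromosome 4 and 29.5% elsewhere. The 3 lowest cells were cell 19 with 8.31%, cell 16 with 14.9% and cell 68 with 15.0%, and in each of them chromosome 4 was below the other chromosomes, which had 14.9%, 16.9% and 17.5% in contact. These 3 cells were also shallow, with 7134, 13034 and 30532 reads.

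The long arm touched the lamina somewhat more than the short arm. The arms were split at the longest stretch without signal, 49600001 to 52600000, which leaves 1385 bins on the long (q) arm and 493 on the short (p) arm. The q arm had 38.9% ± 13.3 of its bins in contact and the p arm 34.6% ± 12.1 (SD, n = 84). The difference of 4.31 ± 9.94 points was smaller than its spread, with the q arm higher in 56 of 84 cells. The arms differed more in their free bins. Bins contacted in under 5% of cells made up 15.8% of the q arm and 32.9% of the p arm, whereas bins contacted in at least 50% of cells made up 48.0% of the q arm and 43.6% of the p arm. Of the 22 bins at 75% or more, 8 were on the q arm and 14 on the p arm. After correction for each cell's contact share on the other chromosomes, the shares of both arms correlated at r = 0.47 over cells, and at 0.53 without cell 31. In the 35 cells with at least 100000 reads the correlation was 0.36. In the 61 cells deep enough for thinning to 30000 reads it was 0.37, against 0.40 in the same columns before thinning. The part of depth in this correlation was not tested.

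Contact frequency, the percent of the 84 cells in which a bin touched the lamina, varied widely along the chromosome, with few bins at the upper extreme. Of the 1878 bins, 381 (20.3%) were contacted in under 5% of cells, against 36.7% of all covered bins of the genome. A further 269 bins lay at 5 to under 20%, which is 14.3% against 15.6% over the genome, and 348 at 20 to under 50%, which is 18.5% against 17%. At 50% or more stood 880 bins, or 46.9% against 30.7%. All 880 lay under 80%, a range that held 30.4% of the bins of the genome. The excess of chromosome 4 was in the middle of the upper range. At 60% or more it had 549 bins (29.2%, genome 19.7%), at 70% or more 112 bins (5.96%, genome 6.3%), and at 75% or more 22 bins (1.17%, genome 2.13%). Chromosomes 18 and 13 were alike at 75% or more, with 0.932% and 1.04%, whereas chromosome X had 3.98%.

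The autosome with the most contact therefore had no bin that was in contact in at least 80% of all cells. This was 0 of 1878 bins, against 0.303% of all covered bins, and was not particular to chromosome 4. Chromosomes 18 and 13 also had 0 such bins, and chromosome X had 6 (0.404%). The highest bin frequency of chromosome 4 ranked the thirteenth of the 22 chromosomes, and that of chromosome 5 was the same, 79.8%. The count of 0 on chromosome 4 depended on the cells used. Without cells 48, 54 and 56 the share was 0.106%. Among the 35 cells with at least 100000 reads, 265 bins of chromosome 4 (14.1%) reached 80%, against 10.5% of all covered bins. Of these 265 bins, 171 were on the q arm and 94 on the p arm. Among the 49 shallower cells, none did. Thinning to 30000 reads, in the 61 cells deep enough for it, left 0.479% of the bins of chromosome 4 at 80%, against 2.50% in the same columns before thinning.

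Single bins at the top of the order were spread over both arms. The highest was 94000001 to 94100000 on the q arm, in contact in 67 of 84 cells (79.8%, exact Clopper-Pearson 95% interval 69.6 to 87.7%). It was followed on the p arm by 29400001 to 29500000, in 66 cells, and 19500001 to 19600000, in 65 cells (77.4%, interval 67.0 to 85.8%). The bins 27800001 to 27900000 on the p arm and 97800001 to 97900000 on the q arm were also contacted in 65 cells. Intervals cover counting error only, and they do not allow for these bins being the highest of 1878. At the other end, 72 bins (3.83%, genome 6.19%) had no contact in any of the 84 cells, so that each may still have a frequency of up to 3.57%. Of these, 29 were on the q arm and 43 on the p arm, and 34 of them lay in the first 9 Mb. The median of their unscaled expectation, 317, was close to the 308 of all bins of the chromosome, and none had under 50.

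**Figure D2:**
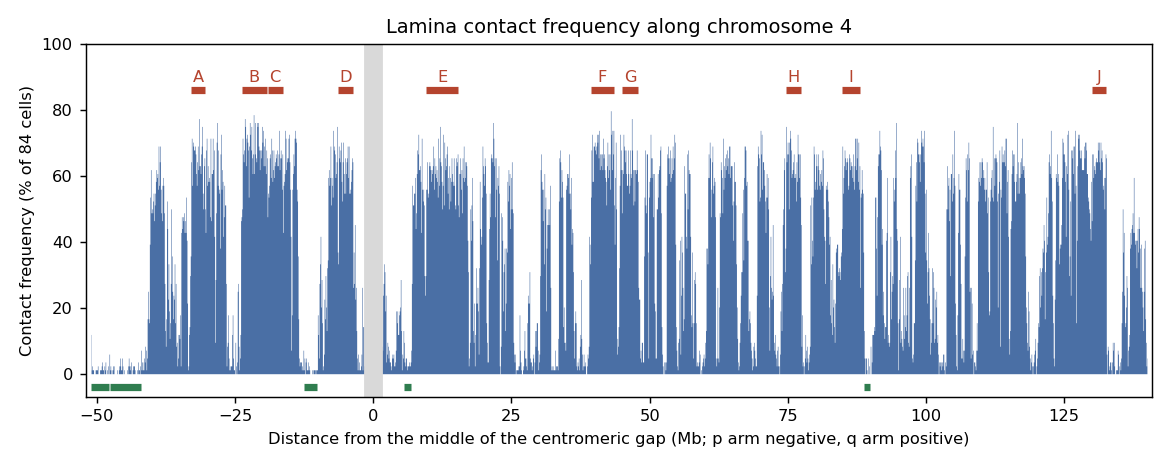
Contact frequency of each 100 kb bin of chromosome 4 (percent of 84 cells) against distance from the middle of the stretch without signal at the centromere (Mb, grey band). Red bars A to J mark the 10 longest stretches at 50% or more and green bars the 5 longest under 5%, and no bin exceeds 79.8%.

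Contacted bins formed 105 stretches of consecutive bins at 50% or more, 88 Mb in all. Their median length was 0.5 Mb, 25 of them were single bins, 25 reached 1 Mb and 13 reached 2 Mb. The 10 longest, named A to J along the chromosome, held 341 of the 880 bins. Of these stretches, 6 lie on the q arm and 4 on the p arm. Their mean frequencies lay between 60.8% and 68.3%, a range bounded below by the choice of bins at 50% or more. Chromosome 4 had the second longest such stretch of the 22 chromosomes, after 9:22. Chromosome 11 was next with 53 bins, against 59 on chromosome 4. Without cell 31 the longest on chromosome 4 was 4.6 Mb, and the rank was not worked out again.

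Over all 84 cells, the long stretch with the highest mean lay on the p arm. Stretch B, 27300001 to 31900000, spanned 4.6 Mb at a mean frequency of 68.3% ± 6.04 (SD over 46 bins), the highest of the 10. Stretch C, 32000001 to 34700000, followed it after 1 bin at 47.6% and averaged 63.8% over 2.7 Mb. With 1 such bin allowed inside a stretch, B and C joined with further bins into 27300001 to 36100000, which is 8.8 Mb at 65.9%, the longest on the chromosome by that rule. In 31 of the 84 cells at least 80% of the bins of this region were in contact, and in only 2 cells at most 20% were. The cells in between numbered 51.

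The remaining p arm stretches flanked this region. Stretch A, 18100001 to 20700000, averaged 64.4% over 2.6 Mb. Its share of bins in contact ran from 0% in the lowest cell through a median of 73.1% to 100% in the highest, and 13 cells had all of its bins in contact. Stretch D, 44800001 to 47400000, averaged 62.4% over 2.6 Mb and lay close to the centromere, with a lowest cell at 0%, a median of 65.4% and a highest cell at 100%. Between D and the stretch without signal contact was low again. The last 2 Mb before it averaged 11.4%, from 1.19 to 45.2% per bin, and the 2 Mb after it 11.7%. Contact was thus low on average on both sides of the centromere, with single bins up to 33.3% after it.

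On the q arm the longest stretch over the 84 cells, E, came early. It held bins at exactly 50%, and without cell 31 the longest stretch of the chromosome was 4.6 Mb. E ran from 60600001 to 66500000, 5.9 Mb, at a mean of 60.8% ± 5.89 (SD over 59 bins), the lowest mean of the 10. No cell lacked it altogether, since the lowest cell still had 10.2% of its bins in contact, the median was 61.0%, and 3 cells had all 59 bins in contact. Stretches F and G lay close together in the middle of the arm. F, 90400001 to 94700000, averaged 65.6% and held the highest bin of the chromosome, and its share of bins in contact ran from 2.33% in the lowest cell through a median of 70.9% to 100%. G, 96100001 to 99000000, averaged 62.5% and was bordered on its far side by 5 bins at 16.7%.

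The distal q arm held 3 more. H, 125700001 to 128400000, averaged 64.1%, and I, 135900001 to 139100000, averaged 63.3%. J, 181100001 to 183700000, averaged 63.6% and ended most abruptly, with 4.52% in the next 5 bins against 60.2% in its last 5 bins. The 5 bins before its start averaged 47.6%. The next stretch in length, just outside the 10 longest, was 166500001 to 169000000 with 2.5 Mb at 61.6%.

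**Figure D3:**
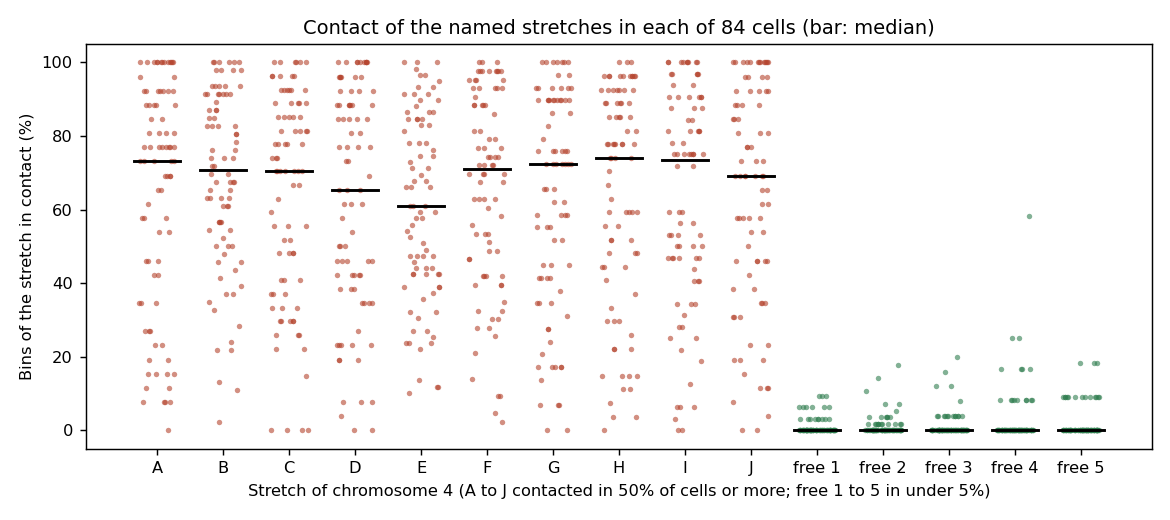
Percent of the bins of each named stretch that were in contact, 1 point per cell and 84 cells per stretch, with the median as a bar. For A to J the cells spread from near 0 to 100% with medians from 61.0 to 74.1%, whereas the medians of the 5 free stretches are at 0.

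Long contacted stretches differed between cells in how much of them was in contact. Over the 25 stretches of at least 1 Mb, 39.8% of all combinations of a stretch and a cell had at least 80% of the bins in contact, 12.8% had at most 20%, and 47.4% were in between. On the other chromosomes, over 247 such stretches, these shares were 43.9%, 13.1% and 43.0%. The number of A to J that were at least 80% in contact in a cell had a median of 3. It was 0 in 19 cells and 10 in 5 cells. Cell 74 had 9 of the 10 in contact to at least 88.1%, and only J to 53.8%. In the middle cell, cell 47, stretch I was contacted to 81.3% and H to 77.8%, but D to only 19.2%. Cell 19, the shallowest, had at most 14.0% in any of them.

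Depth moved with these values. In the 35 cells with at least 100000 reads, the mean frequency of A to J ran from 71.7% for E to 82.5% for F, and in the 49 shallower cells from 51.9% for D to 59.8% for B. F had 34 of its 43 bins at 80% or more in the deep cells, and B had 27 of 46. The longest stretches at 80% in the deep cells were 92100001 to 93200000 within F, with 1.1 Mb at 85.5%, and 29600001 to 30500000 within B, with 0.9 Mb at 87.3%. Even in deep cells contact was not constant, since between 18 and 24 of the 35 cells had a given stretch of A to J in contact to at least 80%.

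The free parts of chromosome 4 were mostly short, and the longest lay at one end. Bins under 5% formed 89 stretches with a median of 0.2 Mb, and only 5 reached 1 Mb. The tip of the p arm held the 2 longest, 3400001 to 9000000 with 5.6 Mb at a mean of 1.25%, and 100001 to 3300000 with 3.2 Mb at 1.12%. They were parted by 1 bin at 5.95%. With single bins of 5.95 and 7.14% allowed inside it, 100001 to 9200000 was free at a mean of 1.32%, and 46 of 84 cells had no contact in any of its 91 bins. In no cell were more than 13.2% of these bins in contact. The tip of the short arm is known for carrying HTT, the gene affected in Huntington's disease.

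The other free stretches lay inside the arms. On the p arm, 38500001 to 41000000 averaged 1.38% over 2.5 Mb, between stretches C and D. On the q arm, 56700001 to 57900000 averaged 2.98% over 1.2 Mb, with further contacted bins between it and E, and 139900001 to 141000000 averaged 2.06% over 1.1 Mb, with a short contacted block between I and it. The next in length reached only 0.8 Mb. Free regions were not without reads. In the stretch 3400001 to 9000000, 71 of 84 cells had a read in their deeper column, but the mean ratio was 0.0585, against 2.12 in stretch B. The highest mean ratio of a single cell over a free stretch was 3.56, in cell 54 at 56700001 to 57900000.

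The chromosome ends differed from each other. The last 2 Mb with a signal, 189200001 to 191100000, averaged 28.3% and reached 47.6% in its highest bin, and 77 of 84 cells had at least 1 of its 19 bins in contact. The first 2 Mb averaged 1.55%, and 19 of 84 cells had a contact there. Along the chromosome in steps of 4 Mb, the highest mean was 68.0% at 28000001 to 32000000 on the p arm. The lowest outside the p arm tip and the centromere were 11.2% at 184000001 to 188000000, next to stretch J, and 11.4% at 76000001 to 80000000.

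Contact changed within a few bins at the edges of domains. The steepest border lay at 104100001 on the q arm, with 63.8% in the 5 bins after it against 2.38% in the 5 bins before. In 76 cells the side after the border had more contact, in 8 cells both sides were equal, and in no cell was it reversed. The next were 84600001 (60.7% after, 3.81% before), 183700001 at the end of J (4.52% after, 60.2% before), 120500001 (63.3% after, 8.10% before) and 105700001 (12.9% after, 67.9% before). Each of these was crossed in the same direction by at least 72 cells and reversed in at most 3. The border at 104100001 and that at 105700001 enclose a region of 1.6 Mb, so a narrow domain had the first and the fifth steepest edge. These borders were the steepest of the chromosome by choice, and the counts of cells describe them without a test.

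Within a cell, contacts came in runs of consecutive bins. Cells had 200 ± 56.2 runs on chromosome 4 with a mean length of 3.91 ± 1.98 bins (SD, n = 84), which ranged from 1.18 bins in cell 19 to 10.4 bins in cell 74. Of 16816 runs in all cells, 8031 (47.8%) were single bins and 1375 reached 1 Mb. Runs of at least 10 bins held 35.5% ± 22.6 of a cell's contacts. The mean run length of chromosome 4 ranked the fourth of the 22 chromosomes, whose median was 3.73 bins and whose highest was 4.03 bins, on chromosome 3. By the share of contacts in runs of at least 10 bins, chromosome 4 ranked 9 of 22. The median of that share was 34.7% and the highest 40.5%, on chromosome 18. Run length moved with depth. It was 5.46 bins in the cells with at least 100000 reads and 2.81 bins in the others, and 2.77 bins in the 61 cells thinned to 30000 reads, against 4.09 bins in the same columns before thinning.

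The longest run of a cell measured from 0.3 to 9.6 Mb with a median of 3.15 Mb, and 17 cells had a run of at least 5 Mb. The longest of all was 58100001 to 67700000 in cell 46, which covers E and bins on both sides of it. In 13 cells the longest run touched B, in 12 it touched E and in 11 it touched C, while in none did it touch H. The longest run lay on the q arm in 49 cells and on the p arm in 35.

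**Figure D4:**
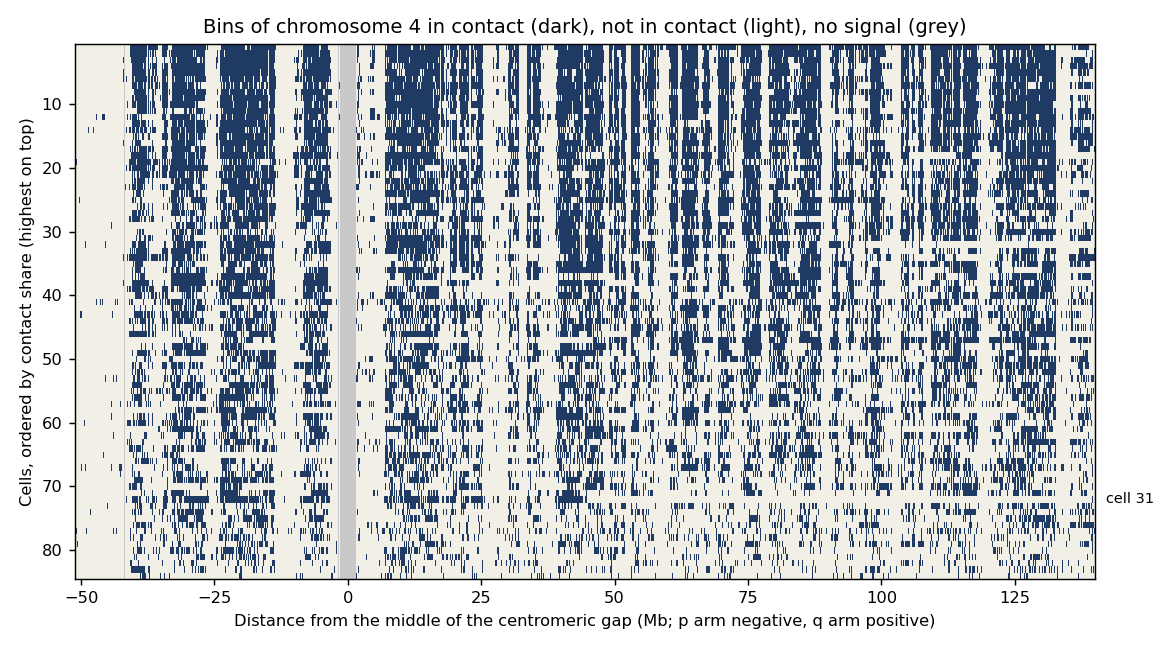
Contact calls of chromosome 4 in all 84 cells, 1 row per cell ordered by contact share with the highest on top, against distance from the middle of the stretch without signal at the centromere (Mb). Dark bins are in contact, and columns of dark bins mark domains shared by many cells; in cell 31 a block of 94.6 Mb that reaches almost to the right end holds none.

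Cell 31 stood apart from all others. From 95900001 to 190500000 on the q arm, over 94.6 Mb, it had no bin in contact, whereas the frequencies of these bins over all cells add up to 378 contacts. The rest of its chromosome 4 was in contact to 48.3%, and its contact share was 16.1% on the q arm and 46.0% on the p arm. The cell was not shallow, with 135474 reads. In the contact-free segment it had 0.427 reads per bin, against 9.45 in its other bins of chromosome 4 that are contacted in at least 5% of cells and 0.619 in its bins under 5%. By the share of bins that held a read the order was the other way, with 31.2% in the segment against 27.4% in the bins under 5%. Reads over the segment were thus close to those of the cell's own rarely contacted bins. These data hold no measure of how much DNA of the segment the cell had, so a loss of the segment and its absence from the lamina cannot be told apart. Without cell 31 the contact share of the q arm was 39.2% ± 13.2 and that of the p arm 34.5% ± 12.1 (SD, n = 83).

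Shorter contact-free segments were seen in other cells. Ranked by the contacts that the frequencies over all cells add up to, the next were 161500001 to 178600000 in cell 71 (78.3 contacts), 154900001 to 167100000 in cell 80 (55.1 contacts), a segment across the centromere from 35500001 to 58000000 in cell 9 (51.4 contacts), and 1 to 20300000 in cell 32 (44.2 contacts). The median over the 84 cells was 14.5. In cells 71 and 80 the segment had 0.760 and 0.648 reads per bin, against 5.29 and 6.43 in the other bins contacted in at least 5% of cells, and 0.201 and 0.130 in bins under 5%. Reads there thus lay between those levels. Cell 9 had 0.109 reads per bin in its segment, against 1.47 and 0.0804, and its contact share was 36.5% on the q arm and 7.91% on the p arm. This ranking was chosen after seeing the data.

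Bins that lie side by side were often in contact in the same cells, and this likeness faded over megabases. It was measured on the 1228 bins with a frequency of 20 to under 80% (65.4% of the chromosome, against 47.4% over the genome). Contact calls were correlated over the 84 cells after a straight line in the contact share of the other chromosomes had been subtracted. The mean correlation was 0.393 for adjacent bins, 0.256 at 0.6 to 1 Mb, 0.137 at 2.1 to 5 Mb, 0.0900 between 10 and 20 Mb and 0.0347 beyond 100 Mb. Without the correction it was 0.440 for adjacent bins and 0.105 beyond 100 Mb. All these pairs share cells, libraries and depth. Adjacent bins correlated at 0.442 ± 0.0396 on the other chromosomes (SD over 20 chromosomes), 18 of which were above chromosome 4. At 1.1 to 2 Mb the correlation was 0.203 on chromosome 4 and 0.266 ± 0.0552 on the others, with 19 of 20 above it. Between 50 and 100 Mb it was 0.0569 on chromosome 4 and 0.0552 ± 0.0382 on 18 others, 7 of which were above it. Beyond 100 Mb it was 0.0347 on chromosome 4 and 0.0464 ± 0.0206 on 11 others, 8 of which were above it. Chromosome 4 thus lay below most of the others at the short distances and beyond 100 Mb, but not between 50 and 100 Mb. With a single chromosome 4 this difference has no test.

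**Figure D5:**
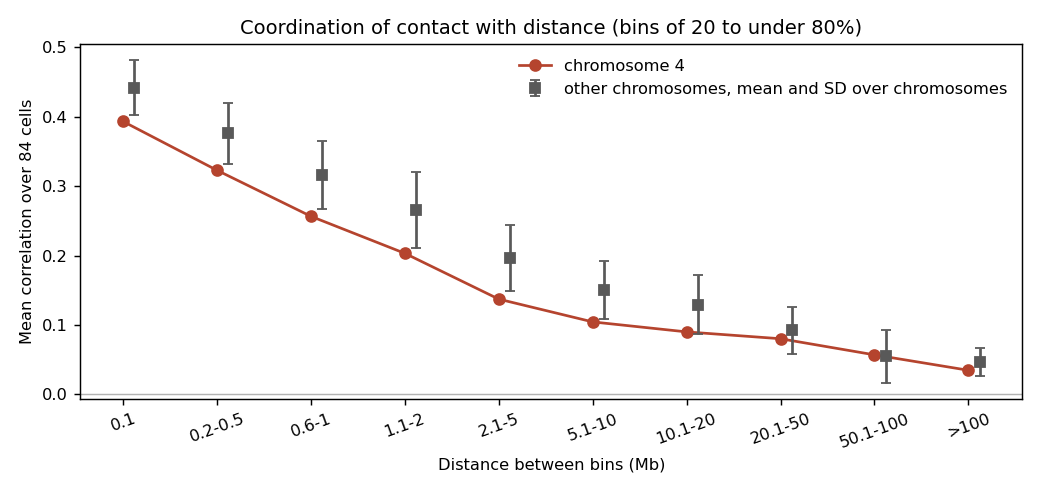
Mean correlation of contact over 84 cells between bins of chromosome 4 (red circles) by the distance between them (Mb), beside the mean over the other chromosomes with their SD (grey squares). The correlation of adjacent bins is 0.393 on chromosome 4 and 0.442 ± 0.0396 on the others, and the values meet between 50 and 100 Mb.

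Pairs of bins across the centromere correlated somewhat less than pairs within an arm at distances up to 50 Mb. Between 5 and 10 Mb apart the values were 0.102 within the q arm, 0.114 within the p arm and 0.0808 across. Between 10 and 20 Mb they were 0.0888, 0.0983 and 0.0802 in the same order. Between 20 and 50 Mb apart, pairs of bins correlated at 0.0805 within the q arm, 0.106 within the p arm and 0.0738 across the centromere. Between 50 and 100 Mb the values were 0.0506 within the q arm and 0.0666 across. Pairs across numbered 300 at 5 to 10 Mb and 4711 at 10 to 20 Mb, against 30872 and 55754 within the q arm. Distances were not matched inside these ranges, and the part of distance in the differences was not tested. The long stretches also correlated across the centromere. The shares of A to J in contact correlated positively for all 45 pairs after the correction, from 0.16 for G and J to 0.63 for B and C, with a mean of 0.38. The 4 pairs under 10 Mb apart averaged 0.52 and the 24 pairs at least 50 Mb apart 0.34. Across the centromere, C and F, 55.7 Mb apart, reached 0.53.

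Pairs of cells differed widely in how alike their calls were. The contact calls of 2 cells over the 1878 bins of chromosome 4 correlated at 0.289 ± 0.136 (SD over 3486 pairs of cells), against 0.351 ± 0.121 over the bins of the other chromosomes. The second value pools 21 chromosomes whose mean contact differed, from 1.53% on 22:9 to 37.2% on X. Such differences enter the pooled value only, so the 2 values do not show whether cells differed more on chromosome 4. Pairs ranged from -0.18 to 0.78 on chromosome 4. Over the bins of 20 to under 80% alone, which were chosen for varying between cells, the mean was 0.0852. The part of depth in these values was not tested.

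Chromosome 4 is poor in genes. The RefSeq table of GRCh38.p14 lists 770 protein-coding genes on it, which is 4.03 per Mb of the length in the file. This is the third lowest of 20 chromosomes, after 2.93 on chromosome 13 and 3.46 on chromosome 18. Several of its gene families are clustered. The 4 GABA-A receptor subunit genes GABRG1, GABRA2, GABRA4 and GABRB1, which encode parts of the main inhibitory neurotransmitter receptor, lie within 5 consecutive coding genes. The 10 listed UGT2 genes, for enzymes that couple glucuronic acid to steroids and drugs, are consecutive, and so are the 7 alcohol dehydrogenase genes from ADH5 to ADH7. The 13 listed CXC chemokine genes, for signals that attract leukocytes, lie within 41 coding genes. Gene positions were given in another genome build than that of the bins, so none of these genes was placed in a contacted or free stretch, and contact at single genes was not analysed here.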

How the data were processed

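Single-cell lamina contacts were measured by DamID in KBM7 clone 5-5. The deposited table holds, per the file headers, 1 ratio per sample and 100 kb bin, which is the authors' observed over expected ratio. The submitters' processing notes name cutadapt, Bowtie2 2.1.0 and the genome build hg19, in which all coordinates are given. The handling of duplicates is not given in the sources used here, nor is the origin of the expected reads. Of the 172 labelled samples, 4 have no column and were not analysed here. On chromosome 4, 29 of 1912 bins were empty and 5 held only zeros.

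Columns n and n + 86 were averaged. Contact was a ratio of at least 1, frequency the percent of 84 cells, and stretches were consecutive covered bins. Reads were worked back from the ratios, which are whole multiples of a step per bin and column: all positive values (100%) gave whole reads to within 0.02. The functions were tested on simulated data. Whether reads stand for independent molecules is not known, since the handling of duplicates is not given, and intervals and limits cover counting error only. Regions are named for the 10 longest contacted stretches (50% or more), the 5 longest free ones (under 5%), the highest bins and the 5 steepest borders; named cells were the 3 lowest, the middle and the 3 highest. Members, lists and rules were chosen with earlier results of these data known. Planned values for genes were not run, since no hg19 annotation was given. Calculations used Python 3.11.15, numpy 2.4.6, pandas 2.3.3 and scipy 1.17.1.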

Additional observations from a re-analysis of the deposited data

How the results depend on the processing

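No paired analysis was possible because all cells belong to 1 group, with no replicate numbers shared between groups. Differences between chromosomes or arms were taken within each cell, and no result comes from a test. Of 202 values under 15 other settings, 174 stayed within the limit for their kind. The limit was 1 SD over cells for shares, differences and runs, 1 SD over the other chromosomes for correlations between bins, the binomial interval for the highest bin, and 1.5-fold otherwise. Of 94 values for settings or results added after seeing the data, 69 did. A limit of 1 SD over cells is wide, so these counts do not show that such values changed little. The part of contacts lying in long runs, 35.5% ± 22.6 as reported, was within it at 14.2% with a cutoff of 2. So were 18.6% when thinned, against 37.9% in the same columns unthinned, and 54.0% with at least 100000 reads. Mean run length, 3.91 ± 1.98 bins, was within it at 2.37 bins with a cutoff of 2 and 5.17 bins at 0.5. No difference or correlation changed sign, and the other values cannot be negative. The excess of chromosome 4 over the other chromosomes ran from 5.88 to 13.5 points and that of the q arm over the p arm from 1.92 to 6.02 points. By construction, a cutoff of 2 lowered the contact share to 21.7% (q arm 22.2%, p arm 20.3%) and its SD to 7.78. Thinning to 30000 reads gave an SD of 7.30. Bins at 50% or more were 25.5% at a cutoff of 1.5 and 3.94% at 2, and bins under 5% were 9.85% at 0.5 and 31.8% at 2.

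Stretch lengths moved under many settings. The longest at 50% or more, 5.9 Mb, was 9.1, 1.7 and 0.2 Mb at cutoffs of 0.5, 1.5 and 2, 2.4 Mb in cells 1 to 29, 9.1 Mb in cells with a value in at least 50% of the other bins, 2.8 Mb when thinned, and 9 Mb with at least 100000 reads. Within the 1.5-fold limit, it was 4.6 Mb in even cells, in cells 30 to 86, in lower-numbered columns and without cell 31. The same 4.6 Mb was found without cells 48, 54 and 56 and without cells 63, 69 and 79. It was 7.5 Mb in odd cells and in higher-numbered columns, and 7.6 Mb with scaled cells. The longest under 5%, 5.6 Mb, was 2, 8.9 and 9.1 Mb at the 3 cutoffs, 3.7 Mb with scaled cells, with lower-numbered columns and in cells 30 to 86, 3.5 Mb in odd cells and when thinned, 2.4 Mb in cells 1 to 29, 3.4 Mb in the same columns unthinned, and 9.1 Mb with 1 bin allowed. That rule also gave runs of 7.34 bins and 60.3% of contacts in long runs. Adjacent bins correlated at 0.297 in cells 1 to 29, 0.445 in cells 30 to 86, 0.291 when thinned, 0.508 with at least 100000 reads and 0.440 uncorrected; bins over 50 Mb apart, 0.0482 as reported, gave 0.121 uncorrected and 0.0259 when thinned. The cause was not tested.

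The highest bin frequency, 79.8%, was 92.9, 67.9 and 61.9% at the 3 cutoffs, 97.6% in cells with a value in at least 50% of the other bins and 94.3% with at least 100000 reads. Bins at 80% or more, 0 as reported, were 5.59% at a cutoff of 0.5, 0.160% with scaled cells, 0.319% in higher-numbered columns and in cells 1 to 29, 0.479% in odd cells, in even cells and when thinned, 2.50% in the same columns unthinned, 1.28% in cells 30 to 86, 0.106% without cells 48, 54 and 56, 0.0532% without cells 63, 69 and 79, 10.7% in cells with a value in at least 50% of the other bins and 14.1% with at least 100000 reads. These sets also differ in their number of cells. The cause was not tested.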
